A study of Mus musculus with 6 samples.

Results

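The genes of 4 chemokine ligands and 1 receptor were followed in RNA sequencing of mouse heart cells after myocardial infarction (MI). They are Cxcl9 and Cxcl10, soluble chemokines known as interferon-induced, Cxcl16 and Cx3cl1, the chemokines made as transmembrane proteins, and Cx3cr1, the receptor of Cx3cl1. The genes were chosen by symbol, and all 5 of 5 were found among the 17714 genes of the table. There were 3 MI libraries and 3 sham libraries, each from wild-type (WT) mice at day 3 after MI or a sham operation, and the labels call the cells of each heart lymphatic endothelial cells. The labels name culture in serum-containing medium, give no sort, sex, age or strain, and speak of heart tissue or primary heart endothelial cells without saying which was used. They do not say that the libraries came from separate animals, so the p-values speak to variation among the 6 libraries, possibly technical, and no further.

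Chemokines are small secreted proteins that draw leukocytes along a gradient through receptors on the leukocyte surface. CXCL9 and CXCL10 share the receptor CXCR3 of activated T cells and natural killer (NK) cells. CXCL9 is known mainly as a target of interferon gamma, while CXCL10 also answers to type I interferon and NF-kB. CXCL16 and CX3CL1 carry their chemokine domain on a mucin-like stalk at the cell surface, where they can hold cells bearing CXCR6 or CX3CR1, and the proteases ADAM10 and ADAM17 can release them. CX3CR1 marks monocytes, many tissue macrophages and microglia.

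Cxcl9 and Cxcl10 are neighbours on chromosome 5, and both are protein coding and read from the minus strand. In RefSeq on GRCm38.p6, Cxcl9 (Entrez 17329) spans chr5:92321331-92328079 and Cxcl10 (Entrez 15945) spans chr5:92346638-92348889, 18559 bases away. The 250 bases before each annotated start, from RefSeq on GRCm38.p6, are shown because these neighbours moved in opposite directions. Capitals mark matches, on either strand, to the interferon-stimulated response element (ISRE) core (GAAA and GAAA with NN between), the interferon gamma-activated site (GAS) TTCNNNGAA, the NF-kB consensus or the CCAAT box. The first line is the minus strand of chr5:92328080-92328329 and the second that of chr5:92348890-92349139.
Cxcl9: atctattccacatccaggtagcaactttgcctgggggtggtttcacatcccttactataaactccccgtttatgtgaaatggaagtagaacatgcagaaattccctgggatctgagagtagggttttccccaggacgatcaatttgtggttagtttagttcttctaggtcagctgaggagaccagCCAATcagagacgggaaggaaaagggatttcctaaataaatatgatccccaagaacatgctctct
Cxcl10: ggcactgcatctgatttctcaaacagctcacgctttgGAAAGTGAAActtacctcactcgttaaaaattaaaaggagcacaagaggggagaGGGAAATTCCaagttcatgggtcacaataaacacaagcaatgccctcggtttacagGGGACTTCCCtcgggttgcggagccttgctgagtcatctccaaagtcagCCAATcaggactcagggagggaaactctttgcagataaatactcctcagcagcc

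The Cxcl10 window held an ISRE core at -213 to -204 and 2 NF-kB consensus matches at -159 to -150 and -103 to -94, counted back from -1 at the base before the start. In the Cxcl9 window the CCAAT box was the only match, at -65 to -61, against -54 to -50 in Cxcl10. The longest run of bases shared by the windows, CAGCCAATCAG, surrounded that box. Of 32851 windows of this length, 2.98% held an ISRE core, 7.02% a GAS, 3.9% an NF-kB match and 33.8% a CCAAT box. A window was found for 4 of the 5 genes, and those of Cx3cl1 and Cx3cr1 held no ISRE core, GAS or NF-kB match. These are exact letter matches in a short window, with near matches not sought, and show neither binding nor its absence.

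MI libraries held 21154200 to 21689212 estimated counts and sham libraries 3206373 to 3591135. The MI mean was 6.29 times the sham mean, so depth followed the group. If the MI and sham libraries were also made in separate batches, batch and operation cannot be told apart. Levels are given as TPM, the authors' relative transcript abundance, which is scaled to transcript length and to the library's total. Fold changes, as MI over sham, come from the counts in edgeR's quasi-likelihood test, with p-values adjusted by Benjamini-Hochberg over 13370 genes and called below 0.05.

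Of the 5 genes, Cxcl10, Cxcl16 and Cx3cr1 rose and Cxcl9 and Cx3cl1 fell in MI. The call itself was common in these libraries: 73.3% of tested genes were called, 36.4% higher and 36.9% lower. Of the calls 49.6% were higher, or 34.9% with scaling to library totals. The CPM of MI and sham libraries (counts relative to the scaled library size) did not overlap for any of the 5 genes, nor for 76.1% of all tested genes. The size and direction of each change therefore say more than the call. In bulk RNA, fewer cells of a type and less RNA per cell cannot be told apart.

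Cxcl9 had 14.6, 12.6 and 12.9 TPM in the MI libraries, against 48.6, 48.5 and 55.8 TPM in the sham libraries. Every MI library was below every sham library. It averaged 13.4 ± 1.11 TPM in MI and 50.97 ± 4.2 TPM in sham (SD, n = 3 each), and fell 3.42-fold (log2 fold change -1.77 ± 0.1, SE, edgeR adjusted p = 1.49e-08). A fall at least this deep was fitted for 10.01% of tested genes. Cxcl9 was not scarce in either group by reads, with 285 estimated counts in the lowest library.

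Cxcl10 had 534, 528 and 556 TPM in the MI libraries, against 149, 134 and 128 TPM in the sham libraries. The 3 MI values lay close together and well above all sham values. It averaged 539 ± 14.7 TPM in MI and 137 ± 10.6 TPM in sham (SD, n = 3 each), and rose 4.41-fold (log2 fold change 2.14 ± 0.09, SE, edgeR adjusted p = 1.19e-09). A rise of this size or more was fitted for 8.85% of tested genes. Cxcl10 lies inside Art3, a gene on the opposite strand, and reads of the pair cannot be separated where no strand setting is given; Art3 fell, with a log2 fold change of -2.95 ± 0.1 (SE).

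**Figure D1:**
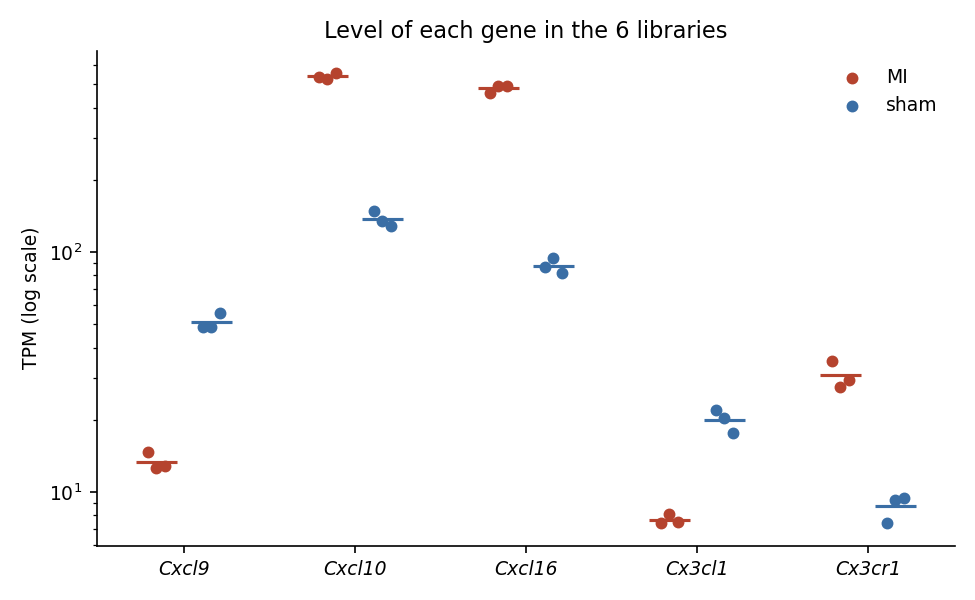
TPM of the 5 genes on a log axis, with 1 point per library, MI in red left of sham in blue, and a line at each group's mean. Cxcl10, Cxcl16 and Cx3cr1 lie higher in every MI library, and Cxcl9 and Cx3cl1 lie lower.

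The pair parted within each library. There were 36.5, 41.95 and 43.1 Cxcl10 transcripts per Cxcl9 transcript in the MI libraries, by TPM, against 3.06, 2.77 and 2.29 in the sham libraries. The log2 ratio of Cxcl9 to Cxcl10 counts, which does not depend on how libraries are scaled, was -3.89 ± 0.13 in MI and 0.02 ± 0.21 in sham (SD, n = 3 each), a difference of -3.91. The exact two-sided permutation p was 0.1, the lowest value possible for 3 libraries a group, and 0.111 after adjustment over the 10 pairs of genes.

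The receptor and partner genes of this axis were few and mostly low. Cxcr3, the receptor of both ligands, had 39, 47 and 49 counts in the MI libraries, against 0, 3 and 0 in the sham libraries. On the scaled library sizes its level was 2.37 CPM in MI and 0.26 CPM in sham, a ratio of 9.12 (95% exact binomial interval 3.06 to 44.8, counting error only). Of 3 genes tested in this list, all 3 were called higher, as were 36.4% of all tested genes. The list's median log2 fold change was 1.74, against -0.01 over all tested genes. After thinning MI counts to sham depth, however, 1 of the 3 was called, Pf4. Without any one MI library, Cxcr3 was too low to test. Pf4, a platelet and macrophage chemokine that binds a CXCR3 form in humans, was the abundant one, at 1123 ± 110 TPM in MI and 378 ± 23.6 TPM in sham (SD, n = 3 each), and rose 3.34-fold. Dpp4, a protease that trims CXCL10, was 1.61-fold higher (edgeR adjusted p = 1.71e-02), a call lost without sham 2, with library totals, with thinned MI counts and on the TPM scale. Markers of the cells that carry CXCR3 were low: the 12 T and NK cell genes summed to 40.4 to 52.4 TPM in MI and 5.68 to 7.73 TPM in sham. Cd3e, a T cell receptor subunit, was at 0 in all MI libraries, while Cd4 and Il7r, which myeloid cells can also express, were the 2 of 4 tested that were called, both higher. These 2 genes made up most of the MI sum. Il7r averaged 34.7 TPM in MI and 0.6 TPM in sham, and Cd4 6.9 TPM in MI and 1.53 TPM in sham.

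Interferon genes did not move as one block. Ifng, which encodes interferon gamma, had 5 counts over the MI libraries, or 0.0877 CPM, and 0 over the sham libraries, where a count of 0 allows up to 0.26 CPM. It was not tested. Ifnb1, the type I interferon beta gene, had 76.3 ± 7.29 TPM in MI and 21.68 ± 4.56 TPM in sham (SD, n = 3 each), and rose 3.97-fold (edgeR adjusted p = 1.05e-06). Among the 9 type I interferon signalling genes tested, 6 rose and 2 fell (median 0.7), against 36.4% and 36.9% of all tested genes. Irf7, a transcription factor that amplifies type I interferon, rose 3.08-fold, and the receptor chains Ifnar1 and Ifnar2 and the kinase gene Tyk2 rose 1.63-fold, 1.6-fold and 1.71-fold. Irf3, a factor that starts interferon transcription, fell 1.91-fold.

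Of 9 interferon gamma signalling genes tested, 7 rose and 2 fell (median 0.69), against 36.4% and 36.9% of all tested genes. With scaling to library totals 5 were called higher, without Jak1 and Ciita. The call of Ciita was also lost without MI 3 or sham 1, and that of Socs1 with thinned MI counts. Irf1, an interferon gamma-induced transcription factor, had 131 ± 4.09 TPM in MI and 440.1 ± 14.6 TPM in sham (SD, n = 3 each), and fell 3.06-fold. The receptor chain Ifngr1 fell 1.43-fold while its partner Ifngr2 rose 1.62-fold. The kinase gene Jak2 rose 3.71-fold and the myeloid factor gene Irf8 3.39-fold.

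Of 16 antiviral interferon-stimulated genes tested, 12 were higher in MI and 2 lower (median 0.95), against 36.4% and 36.9% of all tested genes. With scaling to library totals 10 were called higher, without Ifit2 and Ifit3. The call of Ifit3 was also lost on the TPM scale. Oasl1 and Oas3, of the oligoadenylate synthetase family, rose 19.1-fold and 72.1-fold, and Oas1a and Oasl2 of the same family 5.62-fold and 3.09-fold. Oas3 had 15.75 counts over the sham libraries, so the size of its rise is uncertain. Zbp1, a sensor of nucleic acids, rose 11.1-fold, and Rsad2, which encodes the antiviral enzyme viperin, 2.72-fold. One of the 2 lower calls, Cmpk2, was lost without MI 2, MI 3, sham 2 or sham 3, with RLE scaling, without the filter, and in DESeq2. The Oas genes have close relatives among which reads can be divided, so their single values are uncertain.

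Of 18 interferon gamma-inducible GTPases and enzymes tested, 13 were lower in MI and 4 higher (median -0.73), against 36.9% and 36.4% of all tested genes. With scaling to library totals 14 were lower and 2 higher. How this list and the antiviral list relate to the changes of Cxcl9 and Cxcl10 was not tested. Iigp1, an immunity-related GTPase, had 22.8 ± 5.79 TPM in MI and 109 ± 3.36 TPM in sham (SD, n = 3 each), and fell 4.31-fold. The guanylate-binding protein gene Gbp4 fell 3.6-fold, Irgm2, of the Iigp1 family, 2.79-fold and Nos2, the inducible nitric oxide synthase, 3.39-fold. Acod1, which makes itaconate in activated macrophages, rose 103-fold, and Cd274, the checkpoint ligand PD-L1, 5.14-fold. Psmb8, an immunoproteasome subunit, and Gbp8 were the other 2 higher calls, both lost with scaling to library totals, and that of Gbp8, a gene with 91.2 counts over the MI libraries and 5.91 over the sham libraries, also without sham 2 or sham 3. Gbp8 was too low to test without any one MI library. Guanylate-binding genes have near-identical copies, which makes single values uncertain.

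**Figure D2:**
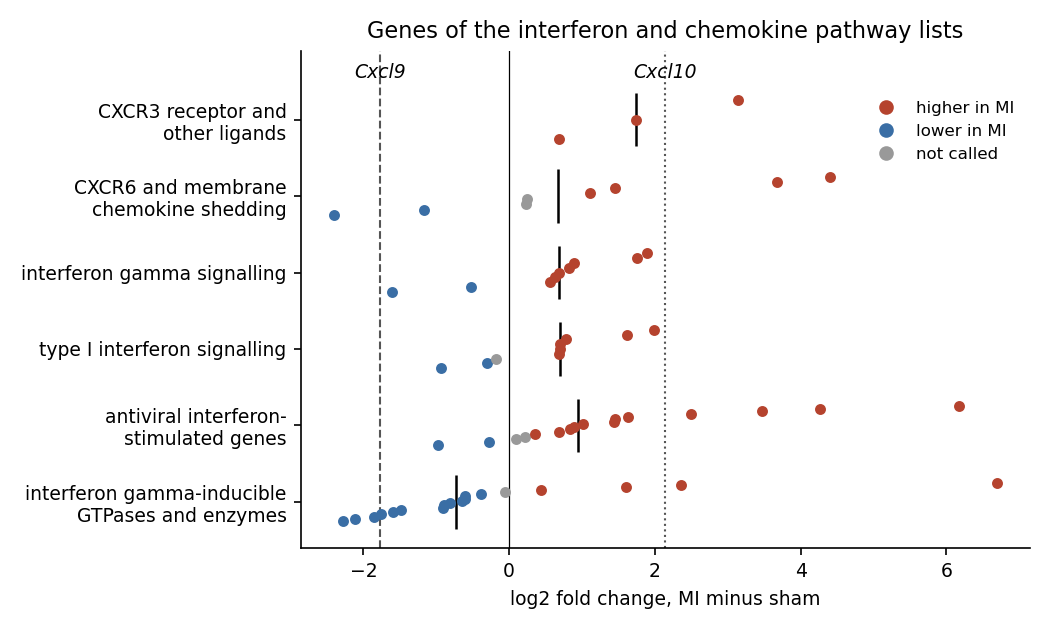
Log2 fold changes (MI minus sham) of the tested genes in 6 lists, 1 point per gene, coloured by call, with a bar at each list's median and broken lines at Cxcl9 (-1.77) and Cxcl10 (2.14). Most antiviral genes lie right of 0, and most interferon gamma-inducible GTPases and enzymes lie left of it.

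The transmembrane ligands also went opposite ways. Cxcl16 (Entrez 66102, chr11:70454389-70459984, protein coding) had 458, 491 and 491 TPM in the MI libraries, against 86.7, 94.4 and 81.7 TPM in the sham libraries. All MI values were far above all sham values. It averaged 480.0 ± 18.9 TPM in MI and 87.6 ± 6.39 TPM in sham (SD, n = 3 each), and rose 6.14-fold, the largest change of the 5 genes (log2 fold change 2.62 ± 0.1, SE, edgeR adjusted p = 4.75e-10). A rise this large or larger was fitted for 6.25% of tested genes. One end of Cxcl16 overlaps Zmynd15 on the other strand, which was at 22.4 ± 0.538 TPM in MI and 8.76 ± 1.32 TPM in sham (SD, n = 3 each).

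Cx3cl1 (Entrez 20312, chr8:94772180-94782427, protein coding), which encodes fractalkine, had 7.42, 8.1 and 7.52 TPM in the MI libraries, against 21.9, 20.4 and 17.6 TPM in the sham libraries. The groups did not overlap, and the sham values were the more spread. It averaged 7.68 ± 0.367 TPM in MI and 19.98 ± 2.19 TPM in sham (SD, n = 3 each), and fell 2.32-fold, the smallest change of the 5 (log2 fold change -1.22 ± 0.13, SE, edgeR adjusted p = 4.88e-06). As deep a fall was fitted for 17.3% of tested genes. There were 61.8, 60.6 and 65.3 Cxcl16 transcripts per Cx3cl1 transcript in the MI libraries, by TPM, against 3.96, 4.62 and 4.64 in the sham libraries. The log2 ratio of their counts differed by 3.83 (exact permutation p = 0.1, n = 3 each, 0.111 after adjustment over 10 pairs).

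Genes linked to the release of these ligands were mixed. Of 8 tested, 4 were higher and 2 lower (median 0.68), against 36.4% and 36.9% of all tested genes. The list also holds genes of protease inhibitors, Timp1 among the higher and Timp3 among the lower, so this tally does not measure release. Adam17 had 118 ± 19.5 TPM in MI and 60.9 ± 3.003 TPM in sham (SD, n = 3 each), and rose 2.16-fold. Adam10 stood at 78.7 ± 22.2 TPM in MI and 73.6 ± 1.47 TPM in sham and was not called (edgeR adjusted p = 1.13e-01), except without MI 2 (log2 fold change 0.35). Rhbdf2, which encodes the ADAM17 partner iRhom2, rose 2.76-fold while its relative Rhbdf1 fell 2.25-fold. Timp3, an inhibitor of ADAM17, fell 5.26-fold, and Timp1, a metalloprotease inhibitor, rose 21.2-fold. Ctss, the lysosomal protease cathepsin S, which can cleave CX3CL1, rose 12.8-fold, at 5528 ± 271 TPM in MI and 483 ± 16.9 TPM in sham (SD, n = 3 each). Cxcr6, the receptor of CXCL16, had 13, 7 and 3 counts in the MI libraries (0.404 CPM over the group) and 0 in every sham library, where up to 0.26 CPM could go uncounted, and was too low to test.

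Cx3cr1 (Entrez 13051, chr9:120048683-120068296, protein coding) had 35.01, 27.5 and 29.4 TPM in the MI libraries, against 7.44, 9.28 and 9.43 TPM in the sham libraries. All MI libraries exceeded all sham libraries. In TPM, the MI values varied more than those of the other risen genes relative to their mean, but in CPM they varied less than those of Cxcl16. It averaged 30.6 ± 3.92 TPM in MI and 8.72 ± 1.11 TPM in sham (SD, n = 3 each), and rose 3.92-fold (log2 fold change 1.97 ± 0.12, SE, edgeR adjusted p = 3.18e-08). As large a rise was fitted for 9.98% of tested genes. GENCODE M21 draws a longer Cx3cr1 that overlaps 9 other genes, among them Csrnp1 and Xirp1, which lie outside the RefSeq span. RefSeq draws the long non-coding RNA genes Gm33858 over Cx3cr1 and Gm51543 over Cx3cl1, which were not analysed here, and the gene model the authors counted on was not given in the sources used here.

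Ligand and receptor thus changed places. There were 0.212, 0.295 and 0.256 Cx3cl1 transcripts per Cx3cr1 transcript in the MI libraries, by TPM, against 2.94, 2.2 and 1.87 in the sham libraries. The log2 ratio of their counts differed by -3.18 (exact permutation p = 0.1, n = 3 each, 0.111 after adjustment over 10 pairs).

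**Figure D3:**
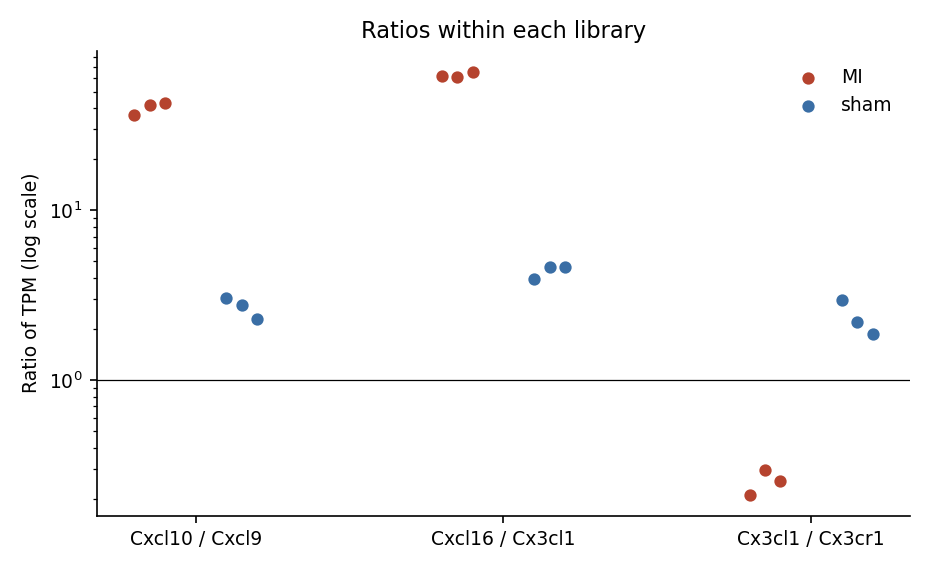
Ratios of TPM between 2 genes within each library, on a log axis, MI in red left of sham in blue. Cx3cl1 is below Cx3cr1 in every MI library (0.212 to 0.295) and above it in every sham library (1.87 to 2.94).

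Across all 10 pairs, 9 had log2 ratios that did not overlap between MI and sham, each with the smallest possible exact permutation p of 0.1. Single genes did not overlap for 76.1% of all tested genes, and the share over other pairs of genes was not worked out. Whether the count of pairs is particular to these genes was therefore not tested. Cxcl9 and Cxcl10 did not form a unit against the transmembrane ligands and the receptor. Cxcl9 was nearer to Cx3cl1, with a difference in log2 ratio of -0.55, than to Cxcl16 (-4.39) or Cx3cr1 (-3.73). Cxcl10 in turn was nearer to Cxcl16 (-0.48) and Cx3cr1 (0.18) than to Cx3cl1 (3.36). The Cxcl10 to Cx3cr1 ratio was the pair that overlapped, at 2.11 to 2.45 in MI and 1.94 to 2.49 in sham (exact permutation p = 0.4, n = 3 each), which does not show that they moved alike.

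**Figure D4:**
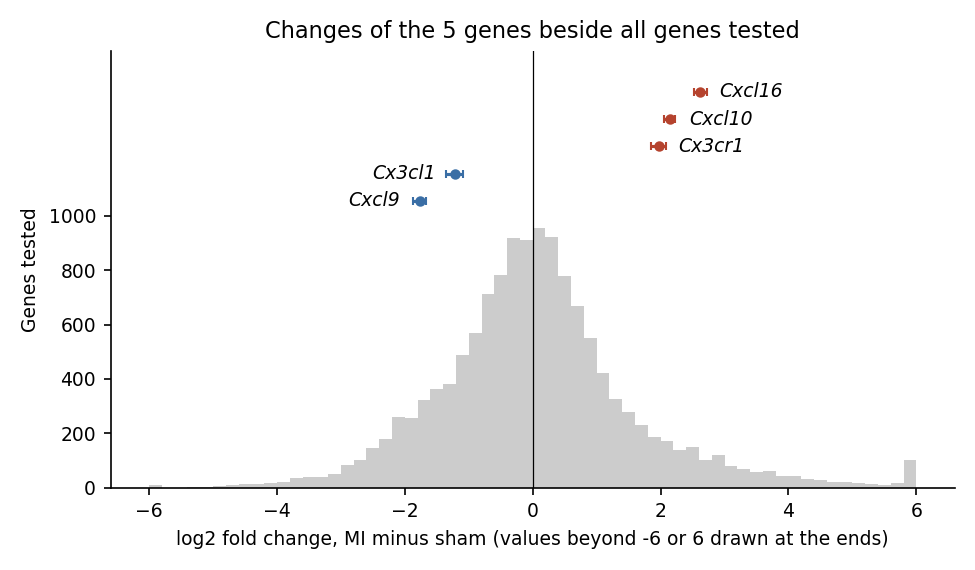
Points are log2 fold changes of the 5 genes (MI minus sham) with SE bars, above a histogram of all 13370 tested genes. The 3 risen genes lie between 1.97 and 2.62 and the 2 fallen genes at -1.77 and -1.22.

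The order of the genes by TPM was Cxcl10, Cxcl16, Cx3cr1, Cxcl9 and Cx3cl1 in MI, and Cxcl10, Cxcl16, Cxcl9, Cx3cl1 and Cx3cr1 in sham. No neighbours in either order had overlapping ranges. Among 39 chemokine ligand genes in the table, Cxcl10 and Cxcl16 ranked 10 and 11 by mean TPM in MI and 11 and 13 in sham. Cxcl9 ranked 19 in MI and 15 in sham, and Cx3cl1 ranked 20 in MI and 18 in sham. Of all chemokine ligand TPM, Cxcl10 made up 2.18% in MI and 2.96% in sham, although its own level was higher in MI.

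Markers of other cell types moved with the groups, and lymphatic markers gave the label little backing in MI. The 10 lymphatic genes summed to 312 to 358 TPM in MI and 549 to 577 TPM in sham. Prox1, the transcription factor that defines lymphatic endothelium, was at 0.283 ± 0.117 TPM in MI and 1.76 ± 0.127 TPM in sham (SD, n = 3 each), and 8 of 10 lymphatic genes were lower. The other 2 were higher: Pdpn, which encodes podoplanin and is also made by other cell types, at 190.4 ± 9.55 TPM in MI and 5.23 ± 0.938 TPM in sham (SD, n = 3 each), and Nrp2. The call of Nrp2 (log2 fold change 0.23) was lost without MI 3 or any one sham library and under 4 other alternatives, and its fold change was -0.11 with library totals. All 12 macrophage and monocyte genes, such as Cd68, Fcgr1 and Itgam, were higher, and they summed to 26207 to 27326 TPM in MI and 5153 to 5429 TPM in sham. All 12 pan-endothelial genes, such as Emcn, Pecam1 and Tek, were lower, at 1192 to 1221 TPM in MI and 6199 to 6271 TPM in sham. The 8 inflammatory monocyte genes were all higher, at 1393 to 1429 TPM in MI and 22.5 to 28.1 TPM in sham. Of 8 patrolling monocyte genes, 6 were higher and 2 lower, of which Nr4a1 lost its call without sham 1 or sham 3, without the filter and in DESeq2. Of 10 resident-type heart macrophage genes 9 were lower, among them Timd4, Cd163 and Lyve1, and 1 was higher. Lyve1 is in both lists and is also counted among the 8 lower lymphatic genes. The lower call of F13a1 (log2 fold change -0.21) was lost without MI 2, MI 3 or any one sham library, with RLE scaling, without the filter and in DESeq2. Of 8 dendritic cell genes 5 were higher and 2 lower, and of 10 fibroblast and mural cell genes 3 were higher and 7 lower. All 8 cardiomyocyte genes were lower. For comparison, 36.4% of all tested genes were called higher and 36.9% lower. None of the macrophage or endothelial genes was at 0 in a whole group. The part these cell types had in the changes of the 5 genes was not tested.

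Each gene was also set against marker lists, as its log2(CPM + 0.5) minus the list's mean. Against the macrophage and monocyte genes, all 5 genes were lower in MI. Cxcl16 kept closest to the list, at -1.27 ± 0.05 in MI and -0.92 ± 0.07 in sham (SD, n = 3 each), followed by Cxcl10 (difference -0.82) and Cx3cr1 (-1.02). Cxcl9 and Cx3cl1 lay 4.71 and 4.14 log2 units further below it in MI than in sham. Relative to the pan-endothelial list all 5 were higher in MI: Cxcl9 by 0.44 and Cx3cl1 by 1.01, against 4.33 for Cxcl10, 4.8 for Cxcl16 and 4.14 for Cx3cr1. Cx3cl1 and Cxcl9 thus fell by less than the endothelial genes did on average, and Cxcl10, Cxcl16 and Cx3cr1 rose by less than the macrophage genes. Each of the 10 differences had no overlap between groups and an exact permutation p of 0.1 (n = 3 each), also after adjustment over the 10. The lists themselves moved, with median log2 fold changes of 2.92 (macrophage and monocyte) and -2.08 (pan-endothelial). How often other genes would separate in this way was not worked out.

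**Figure D5:**
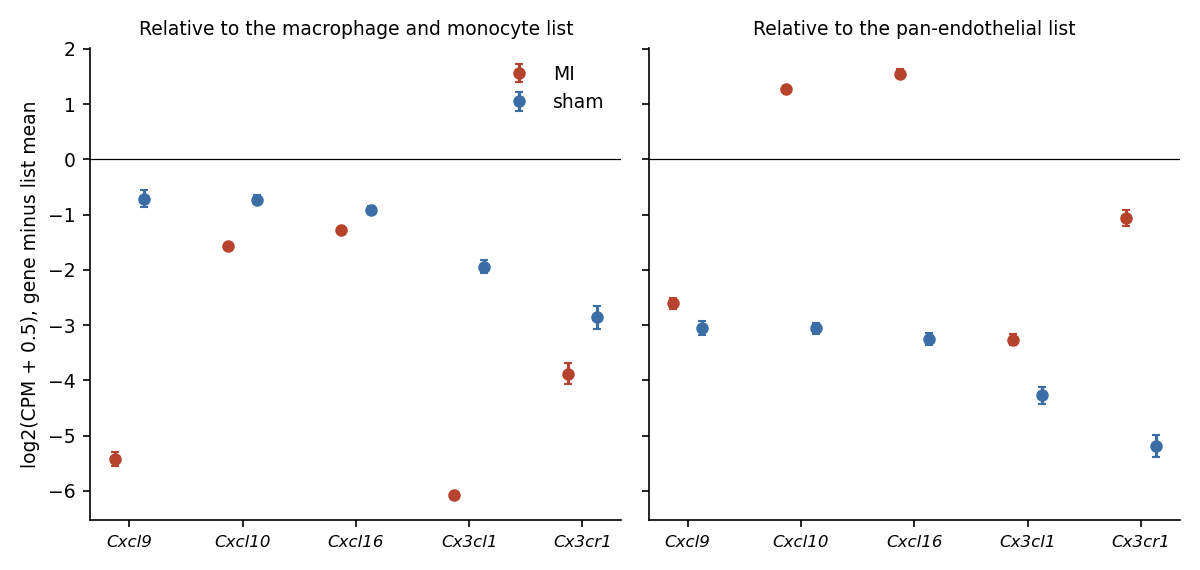
Each gene's log2(CPM + 0.5) minus the mean of a marker list, as mean with SD over 3 libraries, MI in red left of sham in blue. All 5 genes are lower in MI relative to the macrophage and monocyte genes (left panel) and higher relative to the pan-endothelial genes (right panel).

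The genes with the most similar pattern over the 6 libraries were found by the root mean square difference of centred log2(CPM + 0.5), among 11102 genes with a mean of at least 5 CPM in a group. For Cxcl9 they were Btg2 (0.037), Rgmb (0.038) and Vsig10 (0.06). For Cxcl10 they were Psd (0.031), Ptpn1 (0.037) and Stab1 (0.037), and for Cxcl16 Pkm (0.04), Ctsa (0.049) and Tacc3 (0.051). Those nearest to Cx3cl1 were Kin (0.051), Ormdl3 (0.056) and Depp1 (0.062), and those nearest to Cx3cr1 were Snx18 (0.038), Zcchc2 (0.038) and Hic2 (0.05). With 2 groups this measure mostly reads the size of the group difference, which many genes share.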

How the data were processed

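The authors deposited 1 table of 17714 genes with values for each library. Its estimated counts, not whole numbers, were deposited unscaled. It also holds TPM, FPKM and scaled counts, a kind of signal value, computed by the authors per the file headers; of these TPM alone was used. The submitters' processing notes name GRCm38.p6, and also Agilent Feature Extraction 9.1, which reads microarrays, without saying what for. Not given in the sources used here are the aligner, counting program, annotation and strand setting.

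Groups were taken from the sample titles. Estimated counts were rounded to whole numbers, and genes were filtered by filterByExpr, which kept 13370. After TMM scaling, edgeR 4.0.16 (R 4.3.3) fitted a quasi-likelihood model of group alone. Adjusted p-values are Benjamini-Hochberg over all genes tested. SE is the log2 fold change over the square root of F. Ratios of counts had 0.5 added to each count. Alternatives were DESeq2 1.42.0, RLE scaling, library totals, no filter, a stricter filter (1 CPM throughout a group, 100 counts in total), the replicate number as a block, MI libraries thinned to the sham depth, limma 3.58.1 on log2(TPM + 1) for genes of at least 1 TPM in 3 libraries, and each library left out. The procedure was tested on simulated data in which few genes changed, as many up as down. Most genes changed here, so that test does not speak to the scaling of these libraries.

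The 5 genes, the 6 pathway and 10 marker lists, the tests and the alternatives were chosen with earlier results of these data known. Up to 6 genes of a pathway list and 3 of a marker list were named, by smallest p, with the 3 genes most like each of the 5. Adam10, Ifng, Cxcr6, Cd3e, Prox1, Cmpk2, Ifit2, Ifit3, Psmb8, Gbp8, Art3, Zmynd15, Csrnp1, Xirp1, Nrp2, Nr4a1, F13a1, Jak1, Ciita, Socs1 and the genes of the closing section were named after their values were seen. Of the listed genes, Cxcl11, Mx1, Mx2 and Trac were not analysed here. One gene that the naming rule covers is not reported here. Intervals and limits cover counting error only.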

Additional observations from a re-analysis of the deposited data

How the results depend on the processing

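All 5 genes kept their direction and their call under all 14 alternatives, 70 values in all, with a largest adjusted p of 1.27e-04, for Cx3cl1 without sham 1. The log2 fold change ran from -2.12 to -1.7 for Cxcl9, 1.79 to 2.22 for Cxcl10, 2.27 to 2.72 for Cxcl16, -1.57 to -1.12 for Cx3cl1 and 1.62 to 2.03 for Cx3cr1. The ends away from the main values mostly came from scaling to library totals, which moved the median of all tested genes to -0.36, from -0.01 with TMM, and the share of calls that were higher to 34.9%, from 49.6%. The count of called genes ran from 8582 with MI libraries thinned to the sham depth to 10177 with library totals, and from 8596 to 9925 with a library left out. No ratio between the genes or relative to a marker list changed sign. Sham depth sets the lower limit of detection, which bears on Cxcr3, Cxcr6 and Ifng.

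Replicate numbers were shared between the groups, but same-numbered libraries did not deviate together (r = -0.068, -0.037 and 0 across genes), so the numbers were not taken to pair the libraries. With the replicate block, 9635 genes were called, against 9801 without it, and the block changed no call among the 5 genes, while Cmpk2, F13a1 and Nrp2 of the listed genes lost theirs (adjusted p = 6.03e-02, 6.08e-02 and 5.60e-02).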

Other observations

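The genes around the chemokines were listed from RefSeq within 100 kb. On chromosome 5, Naaa, a lipid amidase, and Sdad1, beside Cxcl9, were higher in MI (log2 fold change 1.07 ± 0.11 and 0.92 ± 0.21, SE), unlike Cxcl9 itself. Nup54, a nuclear pore gene on the far side of Cxcl10, had 23.2 ± 2.65 TPM in MI and 24.6 ± 1.45 TPM in sham (SD, n = 3 each) and was not called, and Scarb2, a lysosomal membrane protein gene, was higher (0.63 ± 0.08, SE). Cxcl9 and Art3 were thus the fallen genes among the 7 tested in that stretch, Cxcl9 and Cxcl10 included.

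Cx3cl1 lies between 2 other chemokine genes on chromosome 8. Ccl22, a ligand of CCR4, had 5.04 ± 0.765 TPM in MI and 1.5 ± 0.912 TPM in sham (SD, n = 3 each) and was higher (log2 fold change 1.91 ± 0.35, SE, edgeR adjusted p = 3.74e-04), while Ccl17, which shares that receptor, was at 0.88 ± 0.239 TPM in MI and 0.71 ± 0.617 TPM in sham and was too low to test. Arrb2, an arrestin gene that lies 13561 bases from Cxcl16, had 230 ± 12 TPM in MI and 59.98 ± 2.68 TPM in sham (SD, n = 3 each) and rose (2.08 ± 0.11, SE).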
